A study of Mus musculus with 2 samples.

Results

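Rhox5 is a single gene, measured here by 1 probe (ILMN_2762935, transcript NM_008818) of the 25697 on the array, and 16593 genes were measured in all. It was found as the probe whose platform symbol is Rhox5, and the gene was chosen by its own measured difference between the arrays, so its level and fold are a description that needed no test. The 8 probes of the 7 other measured genes whose symbols start with Rhox served as context. Transcripts of cultured mouse embryonic fibroblasts of C57BL background were measured on 1-colour Illumina bead arrays. The control line had the genotype p53-/- and the other line Dnmt1-/- (p53-/-), so both lines lacked p53 (Trp53), the gene of a tumour suppressor. Dnmt1, which was missing in the second line alone, maintains methylation when DNA is replicated. Each line had 1 deposited sample, called an array here. The labels do not say whether a line was 1 clone or a pool of embryos, nor its sex or passage. With 1 array a group there was no replicate check, differences carry no p-value, and having so few arrays limits how precise any value is.

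Rhox5, also called Pem, encodes a homeodomain transcription factor of the paired class and belongs to a cluster of reproductive homeobox genes on the X chromosome. In mice it is active in the placenta, in Sertoli cells of the testis and in granulosa cells of the ovary. In most somatic cells it is silent, and DNA methylation at its promoters is known to keep it so, which makes it a common marker of lost methylation in mouse cells. The comparison of the lines asks which genes differ in somatic cells without the maintenance enzyme.

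The promoter window of Rhox5 is shown because DNA methylation acts on CpG sites, which are in capitals. The windows are RefSeq sequences of the build GRCm38.p6, from 250 bases before to 50 bases after the gene's start. Rhox1 and Rhox10 are shown beside it as the nearest measured Rhox genes on either side that the RefSeq table holds. Rhox5 lies at chrX:37754358-37754657 on the plus strand, Rhox1 at chrX:37222209-37222508 on the minus strand and Rhox10 at chrX:38066225-38066524 on the plus strand.
Rhox5: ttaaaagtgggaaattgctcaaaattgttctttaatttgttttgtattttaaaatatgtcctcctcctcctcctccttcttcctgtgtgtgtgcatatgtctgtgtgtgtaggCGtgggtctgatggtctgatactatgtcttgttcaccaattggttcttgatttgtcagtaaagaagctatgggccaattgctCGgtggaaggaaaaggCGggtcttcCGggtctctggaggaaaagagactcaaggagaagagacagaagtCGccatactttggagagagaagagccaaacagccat
Rhox1: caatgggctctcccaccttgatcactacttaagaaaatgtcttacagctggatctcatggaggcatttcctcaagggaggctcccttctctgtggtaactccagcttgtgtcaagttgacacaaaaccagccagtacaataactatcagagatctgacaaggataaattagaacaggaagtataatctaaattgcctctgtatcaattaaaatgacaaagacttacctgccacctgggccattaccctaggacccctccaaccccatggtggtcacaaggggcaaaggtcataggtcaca
Rhox10: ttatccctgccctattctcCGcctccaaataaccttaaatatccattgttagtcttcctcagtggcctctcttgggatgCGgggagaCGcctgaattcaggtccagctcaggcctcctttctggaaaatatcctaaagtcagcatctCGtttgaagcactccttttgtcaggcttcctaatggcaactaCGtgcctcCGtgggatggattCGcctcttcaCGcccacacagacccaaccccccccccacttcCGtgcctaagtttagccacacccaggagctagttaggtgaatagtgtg

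The Rhox5 window holds 5 CpG sites, and Rhox1 holds 0 and Rhox10 holds 9. In Rhox5 they start at positions -137, -55, -39, -30 and 15, counted from the gene's first base as 1. Across 32841 RefSeq promoter windows of the same length the median was 7 sites, with quartiles of 3 and 20, and 38% of the windows had fewer sites than Rhox5. Its ratio of observed to expected CpG sites was 0.36, against a median of 0.38. Methylation itself was not measured in these samples, and RefSeq lists 1 start for Rhox5, so any other promoter of the gene was not examined.

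Both strands were searched for 4 motifs. The ETS motif, with the letters CCGGAAG, was found 1 time in Rhox5, on the minus strand at position -34, where it overlaps the CpG site at -30. It was present in 8.86% of all windows. The CCAAT box, searched by those letters, was found 3 times, at -102 and -64 on the plus strand and at -99 on the minus strand, the copies at -102 and -99 overlapping each other, and 37.4% of windows held it. The GC box bound by Sp1, searched as GGGCGG, was not in the Rhox5 window and was in 35.7% of all windows. The TATA box, searched as TATAAA, was not in it either and was in 13.6% of all windows. Each match is a stretch of letters and not a measured binding site.

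**Figure D1:**
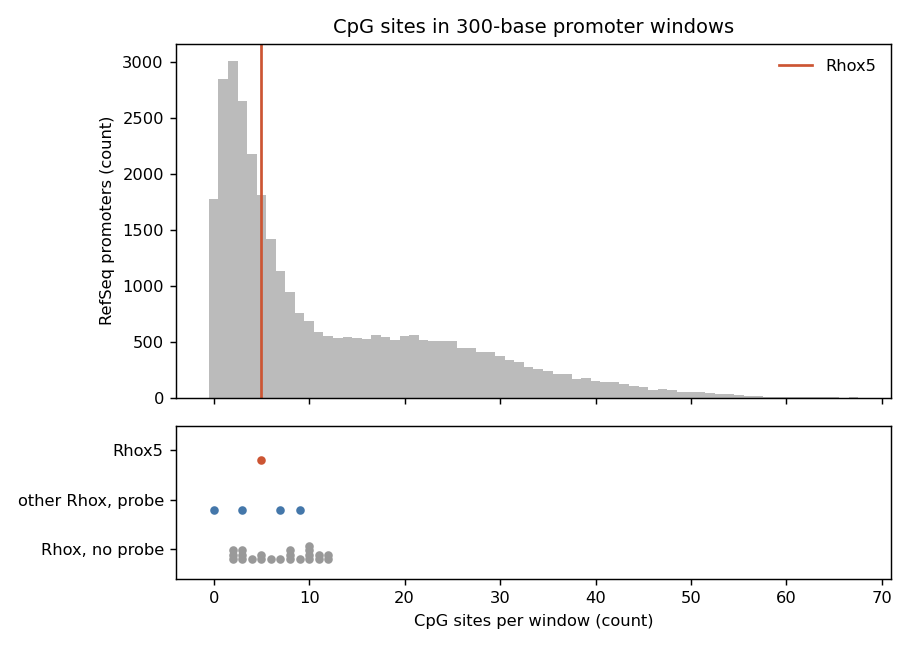
CpG sites per 300-base promoter window. The upper panel counts all 32841 RefSeq windows by their number of sites, with Rhox5 as a line at 5 sites. The lower panel gives each Rhox gene that has a window as a point, stacked where values are equal. Rhox6, Rhox8 and Rhox9 are among those without a window. The Rhox windows hold between 0 and 12 sites. The 27 other than Rhox5, which include the pseudogene Rhox11-ps2, have a median of 7, equal to that of all windows.

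The arrays differed little as a whole. The median probe signal was 150.5 units (control) and 129.8 units (Dnmt1-null), and 10302 and 10048 probes had a detection p-value under 0.01, the limit used for calling a probe detected. Levels are background-corrected and normalized log2 values, and differences are Dnmt1-null minus control. Dnmt1, the targeted gene, had signals of 1715 and 439 units and was 4.54-fold lower in the Dnmt1-null line, where it was still detected. Where its probe lies relative to the deleted part was not determined here. Of the 20 fibroblast markers listed, 18 were on the array and 15 were detected on both arrays, among them Col1a1, Vim and Sparc. Fap, Lum and Postn were detected on neither array. In that list 1 gene was higher by 2-fold or more (S100a4, 3.98-fold) and 2 were lower (Dcn, 3.58-fold, and Prrx1), beside 5.55% higher and 4.59% lower over all detected genes. The median was -0.47 log2, and the summed normalized signal was 68109 in the control and 62834 in the Dnmt1-null line.

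Rhox5 was near background in the control line and among the brightest probes in the Dnmt1-null line. Its deposited signal was 174.9 units for the control and 12108 units for the Dnmt1-null line, a ratio of 69.2 before any correction. After normalization its level went from 5.71 log2 (control) to 13.51 log2 (Dnmt1-null), a difference of 7.80 log2. As the probe was not detected in the control, this is written as at least 222-fold higher, a limit that, like the other limits given here, holds for the reported background correction. In the authors' deposited table the values were 38.8 and 11871, a ratio of 306. Genes of similar mean level differed with a robust SD of 0.37 log2, taken over the 500 nearest genes, which describes genes of these arrays and not replicates. That mean lies between the 2 levels of Rhox5. At a mean level near background, such as that of Rhox1, the same measure was 0.89 log2.

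The control value of Rhox5 lay close to the limit of detection. Its detection p-value was 0.0147, which puts 98.5% of the negative control probes below it, or an average of 11.75 of 798 above it. At a limit of 0.05 in place of 0.01 the probe counts as detected in the control, and the 222-fold difference becomes a measured fold. The lowest signal of a detected control probe was 169.4 units and the highest of an undetected one 220.2 units, so signal and detection p-value do not order the probes alike near this limit. On the Dnmt1-null array the detection p-value of Rhox5 was 0, meaning that no negative control was as bright. The brightest probe there reached 39350 units, and Rhox5 ranked 149 of 25697 probes by brightness, a rank that also depends on how well each probe binds.

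**Figure D2:**
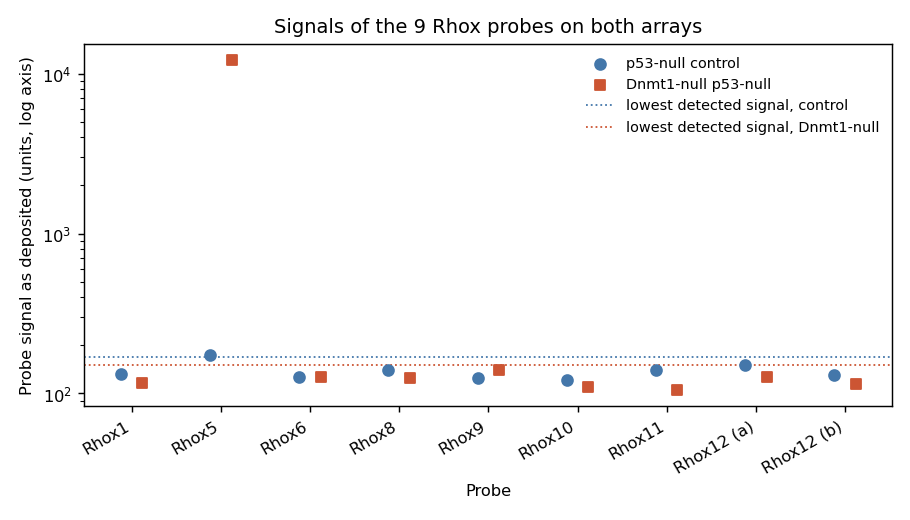
Deposited signal of each of the 9 Rhox probes in units on a log axis, with circles for the p53-null control, squares for the Dnmt1-null line and dotted lines at the lowest detected signal of each array. Rhox5 rises from 174.9 to 12108 units, while the 8 other probes lie between 105.4 and 150.2 units on both arrays.

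The difference of Rhox5 was the largest increase of the 7727 genes detected on at least 1 array, and of the 255 such genes of the X chromosome. Of the 7727, 429 reached a 2-fold increase in the line without Dnmt1 (5.55%) and 355 were lower (4.59%). No other gene was at or below the control level of Rhox5 and at or above its Dnmt1-null level. A total of 718 genes had a control detection p-value between 0.01 and 0.05, as Rhox5 did. Of these, 566 were detected on neither array and so were not called, 43 were higher by 2-fold or more, and 109 changed less or were lower. The 43 and the 109 counted as detected only through the Dnmt1-null array, so their shares are not comparable with the 5.55%. Detection was limited to the Dnmt1-null line for 367 genes, whose median difference was 1.32 log2. As these genes passed the limit on that array alone, a positive median follows from how they were picked.

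The 7 other Rhox genes with a probe were detected on neither array, at a limit of 0.01 or of 0.05. Their 8 probes had signals of 121.9 to 150.2 units (median 130.8) on the control and 105.4 to 139.7 units (median 120.6) on the Dnmt1-null array. Against the 5.55% of detected genes that were higher by 2-fold or more, 0 of these 7 genes were. Since all 7 were below detection, their differences compare background signals, and transcripts too scarce for the array would not have been seen. No fold is given for them.

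Rhox6 and Rhox9, which were first described as placental homeobox genes, stand next after Rhox5 in gene order among those listed, with Rhox8 between them. Rhox9 had 125.7 units in the control and 139.7 units in the Dnmt1-null line. It was the only 1 of the 8 probes whose deposited signal was higher in the Dnmt1-null line, and its detection p-value of 0.0611 there was the lowest of the 8, still above both limits. Rhox6 had 127 and 126.6 units, with detection p-values of 0.793 and 0.249. Rhox8, expressed in Sertoli cells, had 139.8 and 124.1 units, with detection p-values of 0.335 and 0.251. Of these 3 neighbours none reached detection, and their normalized differences of 0.79, 0.39 and 0.10 log2 (Rhox9, Rhox6 and Rhox8) were below 2-fold.

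Rhox1, at the far end of the cluster, had 131.5 units in the control and 117.1 units in the Dnmt1-null line. Rhox10, a gene of male germ cells, had 121.9 and 109.3 units, and Rhox11 had 139.4 and 105.4 units. Rhox12 was measured by 2 probes, with 150.2 and 127.2 units on the first and 130.1 and 115 units on the second. All 5 of these probes were dimmer on the Dnmt1-null array, as was the median of all probes, and their normalized differences ran from -0.22 log2 (Rhox11) to 0.12 log2 (Rhox10). RefSeq lists 33 protein-coding Rhox genes, all on X, and 25 of them had no probe under their names. These include 23 copies of the Rhox2, Rhox3 and Rhox4 subfamilies, together with Rhox7a and Rhox13, and whether they differed is not known from these arrays. Rhox genes are related in sequence and the probe sequence was not used here, so binding of the Rhox5 probe to an unmeasured relative was not tested.

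**Figure D3:**
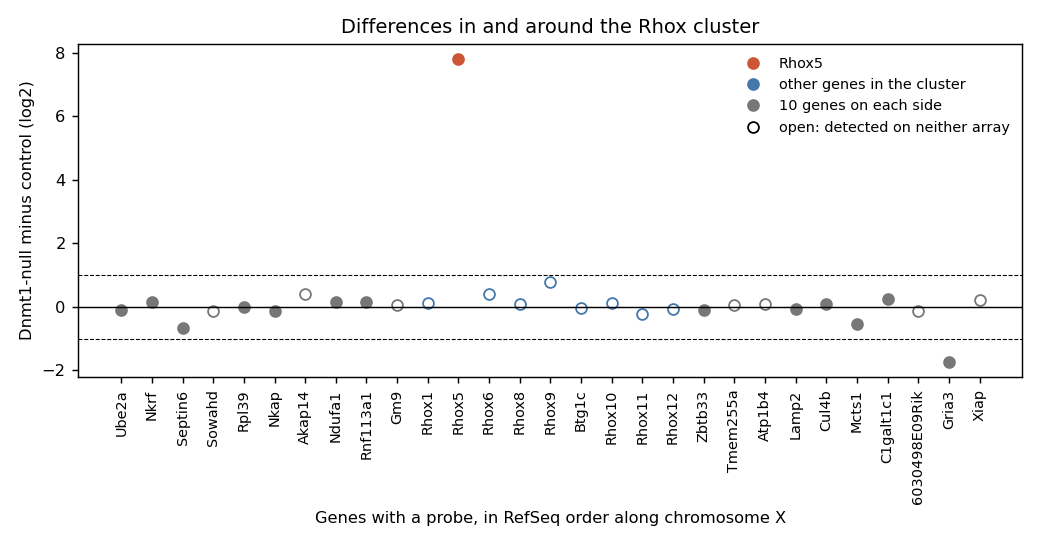
Difference in log2 between the Dnmt1-null line and the control for genes with a probe, in RefSeq order along the X chromosome, in the Rhox cluster and for 10 genes on each side. Rhox5 stands at 7.80 log2, open points were detected on neither array, dashed lines mark 2-fold, and Gria3 at -1.72 log2 is the other point outside them.

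The detected genes flanking the cluster showed no increase of 2-fold or more. Of the 20 genes with a probe nearest to the cluster, 10 on each side, 13 were detected, 0 were higher by 2-fold or more, 1 was lower and 12 changed less, and their median was -0.06 log2 beside -0.04 log2 over all detected genes. At the share of 5.55% higher among all detected genes, a count of 0 among 13 genes is near the background. Before the cluster, Rnf113a1, a ubiquitin ligase gene, had 332.9 units in the control and 317.6 units in the Dnmt1-null line, and Ndufa1, of mitochondrial complex I, had 5077 and 5852 units. After it, Zbtb33, which encodes the methyl-CpG-binding protein Kaiso, had 868.3 and 773.4 units, and Lamp2, a lysosomal membrane protein gene, had 8281 and 8399 units. These 4 genes were detected on both arrays and differed by 0.15 log2 or less. Gria3, a glutamate receptor gene, was the 1 lower gene, with 245.9 units in the control and 134.6 units without detection in the Dnmt1-null line, at least 2.39-fold lower. Its difference was -1.72 log2 as reported, but -0.68 log2 without background correction and -0.99 log2 with a normexp correction and an offset of 50, both under 2-fold. Its other probes, 2 in number, were detected on neither array. Inside the cluster Btg1c, the 1 measured gene of another family, was detected on neither array. Over all 255 detected genes of the X chromosome the median was -0.01 log2, with 26 higher (10.2%) and 22 lower (8.63%) by 2-fold or more, beside 5.55% and 4.59% over all detected genes.

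The lines also differed in markers of the sex chromosomes, on one of which Rhox5 lies. Eif2s3y, a Y-linked translation factor gene, had 1395 units in the control and 117.5 units without detection in the Dnmt1-null line, at least 24.9-fold lower. Kdm5d, a Y-linked histone demethylase gene, had 278.9 and 115.2 units, at least 3-fold lower and without detection in the Dnmt1-null line, and Uty had 183.9 and 147.5 units. The Y-linked transcripts seen in the control were thus below detection in the Dnmt1-null line. Xist, the RNA that coats the inactive X chromosome, had 141.1 units without detection in the control and 185.3 units in the Dnmt1-null line, at least 1.84-fold higher, and its second probe had 137.6 and 179 units. Without background correction the difference of Xist was 0.60 log2, under 2-fold. The X-linked partners Ddx3x, Eif2s3x, Kdm6a and Zfx were detected on both arrays and differed by -0.31, 0.25, -0.04 and -0.06 log2. Usp9x, Kdm5c, Usp9y, Zfy1 and Zfy2 were detected on neither array, and Tsix and Ddx3y had no probe under their names. Of the 13 sex chromosome markers on the array 8 were detected, with 1 higher and 2 lower by 2-fold or more and a median of -0.18 log2. Over all detected genes 5.55% were higher and 4.59% lower. The 1 higher gene, Xist, counted as detected only through the Dnmt1-null array, and with limits in place of measured differences 0 were higher. The part of the sex chromosome differences in the level of Rhox5 was not tested.

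The measured regulators known to act on Rhox5 promoters differed by less than 2-fold. Of 14 listed, 9 were on the array and 8 were detected on both arrays, all 8 within 2-fold, with a median of 0.02 log2. The ETS family gene Ets1 had 1407 units in the control and 1211 units in the Dnmt1-null line, Ets2 had 1990 and 1751 units, and Elf1 had 411.7 and 581.5 units. Elf1 differed most of the 8, by 0.82 log2. Gabpa and Gabpb1, the subunits of the ETS factor GABP, differed by -0.01 and 0.24 log2, Sp1 by 0.32 log2, the signalling gene Nras by -0.22 log2 and Gata6, a GATA factor gene, by 0.04 log2. Gata4 was detected on neither array. Sp3 and Elk1 were among the listed genes with no probe under their names.

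Of the writers, readers and removers of DNA methylation and repressive chromatin, 26 of 36 listed were on the array and 19 were detected. Beside Dnmt1, which was lower, 2 were higher by 2-fold or more, beside 5.55% over all detected genes, and 16 changed less, and the median over the 19 was -0.17 log2. Zbtb38, which encodes a reader of methylated DNA, had 163.5 units in the control and 234.7 units in the Dnmt1-null line, and was at least 2.90-fold higher as reported, but its difference without background correction was 0.71 log2, under 2-fold. Dnmt3l, a cofactor of new methylation in germ cells, had 132.6 and 167.7 units, a measured difference of 1.42 log2 from an undetected signal that gives a limit of at least 1.44-fold, and 0.56 log2 without background correction. Both genes were below detection in the control, as Rhox5 was, so they counted as detected only through the Dnmt1-null array. Uhrf1, which brings Dnmt1 to replicated DNA, had 5662 and 6470 units, and Dnmt3b, an enzyme of new methylation, had 361.4 and 256.9 units. Ehmt2, a histone methyltransferase, had 1406 and 1124 units, and the polycomb genes Ezh2, Eed and Suz12 differed by -0.22, 0.08 and -0.17 log2. Dnmt3a, Hells, Mbd2, Mbd4, Cbx3, Suv39h2 and Tet3 were detected on neither array.

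Among genes reported to respond to Rhox5 in mouse Sertoli cells, 2 of 6 were detected, 1 higher and 1 lower by 2-fold or more. Over all detected genes 5.55% were higher and 4.59% lower, and 2 genes are too few to set against these shares. Unc5c, a netrin receptor gene that Rhox5 is known to repress there, had 722 units in the control and 238.5 units in the Dnmt1-null line, and was 4.12-fold lower, a difference of -2.04 log2. Pparg, a nuclear receptor gene of fat metabolism, had 282.7 and 583.3 units and was 3.20-fold higher on its brightest probe. Its other probes, with 138.4 and 130.7 units and with 140.5 and 117.3 units, were detected on neither array, and with the mean of all its probes the difference was 0.64 log2, below 2-fold. The insulin gene Ins2, the adipokine genes Adipoq and Retn, and the coactivator gene Ppargc1a were detected on neither array. Whether Unc5c or Pparg followed Rhox5 in these cells was not tested, and the loss of Dnmt1 separates the lines at every gene at once.

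Markers of the cell types that use Rhox5 were mostly below detection. Of 14 Sertoli cell markers on the array 3 were detected, all 3 within 2-fold (Sox9, Clu and Tjp1) with a median of 0.10 log2, and the summed normalized signal of the list was 1229 in the control and 1151 in the Dnmt1-null line. Amh, Dhh, Fshr, Wt1 and Nr5a1 were among the 11 markers detected on neither array. Of 15 trophoblast and extraembryonic markers 4 were detected, all 4 within 2-fold (Gata2, Gata3, Krt8 and Sox7, the last 2 on 1 array each), with a median of 0.20 log2 and summed signals of 1454 and 1602, while Cdx2, Eomes, Elf5 and Tfap2c were detected on neither array. Of 8 granulosa cell markers 4 were detected, 1 higher and 1 lower by 2-fold or more, beside 5.55% higher and 4.59% lower over all detected genes. The higher gene, Amhr2, was detected on the Dnmt1-null array alone and the lower gene, Fst, on the control array alone. The median of the 4 was 0.34 log2. The summed signals of the list were 1647 and 2916, a rise that lay mostly in Amhr2 and Inhba. In that list Amhr2, the receptor of anti-Müllerian hormone, had 137.4 and 907.7 units and was at least 17.4-fold higher on its brightest probe, while Fst, an activin-binding protein gene, was at least 5.01-fold lower, and Foxl2 and Fshr were detected on neither array. A second Amhr2 probe had 150.3 and 231.1 units, a difference of 2.01 log2, and another was detected on neither array. Fewer cells of a type and less RNA per cell cannot be told apart in such bulk samples, and the part of these markers in the level of Rhox5 was not tested.

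Of 16 pluripotent and germ cell markers on the array 5 were detected, 3 higher and 0 lower by 2-fold or more, beside 5.55% higher and 4.59% lower over all detected genes, with a median of 1.12 log2 and summed signals of 566 in the control and 679 in the Dnmt1-null line. The 3 higher genes counted as detected only through the Dnmt1-null array, so the count and the median follow in part from the limit on detection. The median without a filter on detection is given further on. Dppa5a, Dppa4 and Dazl had measured differences of 1.43, 1.12 and 1.13 log2 from undetected control signals, which give limits of at least 2.11-fold, 1.16-fold and 1.42-fold. Without background correction these differences were 0.54, 0.45 and 0.40 log2, all under 2-fold. The other probes of Dppa5a (0.12 and 0.22 log2) and of Dppa4 (-0.02 and 0.06 log2) were detected on neither array. Pou5f1, Sox2, Zfp42, Ddx4 and Lin28a were detected on neither array.

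Most other listed homeobox genes of the paired class were below detection, so few could be compared with Rhox5. Of 40 listed, 31 were on the array and 4 were detected, and 0 were higher by 2-fold or more, 1 lower and 3 changed less, the median being -0.02 log2. Over all detected genes 5.55% were higher and 4.59% lower, so a count of 0 higher among 4 genes is near the background. The 27 undetected genes show only background signal. Prrx1, a gene of limb and face mesenchyme, had 775.7 units in the control and 375.1 units in the Dnmt1-null line and was 2.26-fold lower. The difference of Prrx1 was -0.93 log2 without background correction and -0.78 log2 with the mean of its probes, both under 2-fold, and its other detected probes differed by -0.65 and -1.03 log2, while Alx1, Otx1 and Shox2 differed by 0.24, 0.10 and -0.14 log2. Esx1, an X-linked gene of placenta and testis, and the egg-specific genes Nobox, Obox1 and Obox2 were detected on neither array.

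The genes most like Rhox5 were taken as those with the smallest distance between their pair of log2 levels and that of Rhox5, over the 2 arrays. The nearest 10 lay at distances of 0.86 to 3.38 log2, and all 10 were higher by 3.18 log2 or more. As they were picked for this pattern, their values are a description. The nearest was Plac8, first described in placenta, with 197.4 units in the control and 7575 units in the Dnmt1-null line. Psg23, a pregnancy-specific glycoprotein gene, came next with 282 and 26939 units at a distance of 1.95 log2, and Tex19.1, a gene known for retrotransposon control in germ cells, with 144.4 and 3493 units at 1.97 log2. Each of these 3 genes is known from placenta or germ cells.

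Fmr1nb, a testis gene on X, had 144.4 units in the control and 2561 units in the Dnmt1-null line, and Xlr4a, the second X-linked gene of the 10, had 302.9 and 3458 units. Outside these groups came Ifi27, an interferon-induced gene, with 393.6 and 6755 units, Slc47a1, an exporter of organic cations, with 139.4 and 2170 units, and Ctsk, a collagen-degrading protease gene, with 193.9 and 1264 units. Cdsn, a gene of skin cell junctions, had 311.7 and 1730 units, and Casp1, the protease of inflammasomes, had 132 and 1346 units. Of the 10, 4 were undetected in the control (Tex19.1, Fmr1nb, Slc47a1 and Casp1), as Rhox5 was, and 6 were detected there. Probes of a gene did not always match in size. The second probe of Fmr1nb differed by 2.64 log2 where the first differed by 6.35 log2, and the other probes of Slc47a1 differed by 1.26, 1.15 and 0.00 log2 where the brightest differed by 6.23 log2. Rhox5 had no second probe against which to set its value. Of the 10 genes, Ifi27 and Slc47a1 had no RefSeq promoter window. The windows of the rest held from 2 CpG sites (Psg23 and Ctsk) to 16 (Tex19.1), with 9 in Fmr1nb and 8 in Xlr4a, against 5 in Rhox5.

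**Figure D4:**
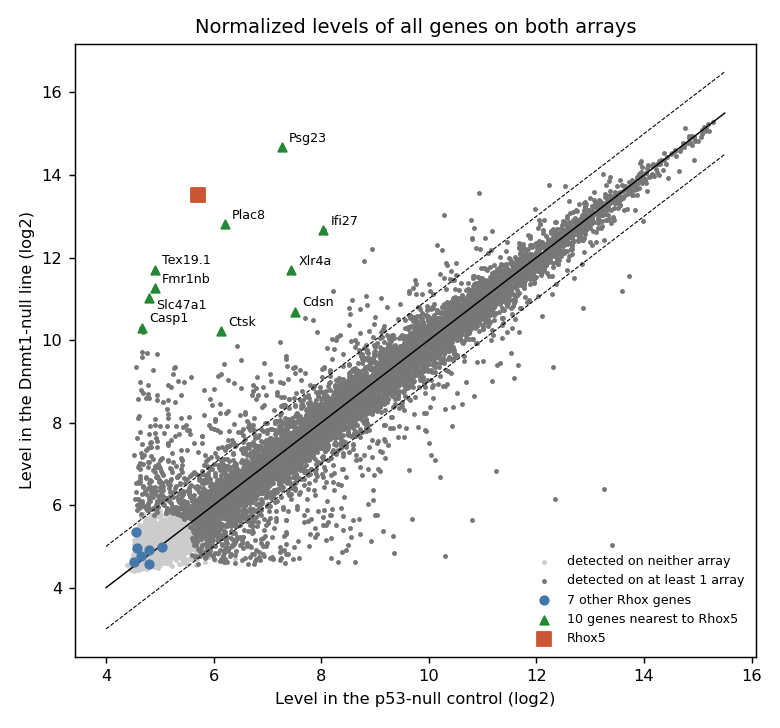
Normalized log2 level of each gene in the control (horizontal axis) and the Dnmt1-null line (vertical axis), with the solid line at equal levels and dashed lines at 2-fold. Rhox5 lies at 5.71 and 13.51 log2, far from the 7 other Rhox genes near the background corner and closest to Plac8 and Psg23.

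The size of the Rhox5 difference depended on how the background was treated, and its direction did not. Across 10 other settings, 4 of which could not change it since it has 1 probe above the floor, it ran from 6.17 to 8.26 log2, or from 72-fold to 306-fold, and the lowest value came without background correction. In 7 of these settings Rhox5 remained the largest increase among detected genes, and in 3 it came second, after Psg23.

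**Figure D5:**
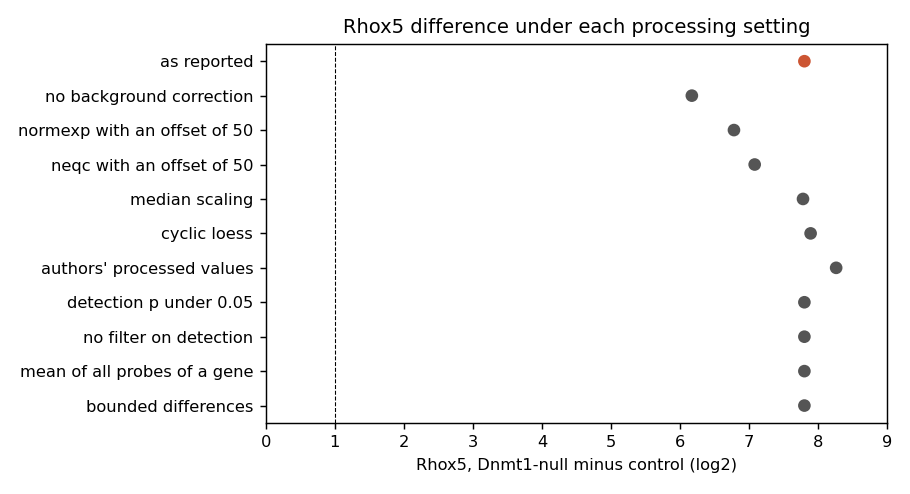
Difference of Rhox5 in log2 under the reported processing and under 10 alternatives, with a dashed line at 2-fold. All 11 values lie between 6.17 and 8.26 log2.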

How the data were processed

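Both arrays were used, 1 per genotype, grouped by labelled genotype. Probe intensity was linear and not normalized, per the file headers, and the authors deposited detection p-values with it. All detection p-values were multiples of 1 in 4 times 798, within 0.0002 of a step, so 4 measurements against 798 negative controls may lie behind each value. The scanner software, and how the authors processed the intensity in their second deposited table, are not given in the sources used here.

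Intensities were corrected, quantile-normalized and put on the log2 scale with neqc of limma 3.58.1 in R 4.3.3 (offset 16), checked on simulated data. Detection meant a p-value under 0.01. The platform table gave 1 gene symbol to 23978 of 25697 probes and none to 1719. The Entrez identifiers of 23962 matched RefSeq genes of GRCm38.p6, which gave names, gene order and promoter sequences. The brightest probe stood for a gene. Where a probe was undetected, its fold is a lower limit against the higher of its own level and the lowest level of a detected probe (5.57 log2 in the control, 5.66 log2 in the Dnmt1-null line). Counts of genes used measured differences. With limits in their place 348 genes were higher and 287 lower.

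The named genes were Rhox5, the other Rhox genes, Dnmt1, the 10 genes nearest in level, 20 flanking genes and members of 10 gene lists. All were chosen with earlier results of these data known. Python 3.11.15, numpy 2.4.6, pandas 2.3.3 and matplotlib 3.10.9 were used.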

Additional observations from a re-analysis of the deposited data

How the results depend on the processing

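The difference of Rhox5 was 6.17 log2 without background correction, 6.78 log2 with normexp and an offset of 50, 7.08 log2 with neqc and an offset of 50 and 8.26 log2 with the authors' processed values. It was 7.78 log2 under median scaling and 7.89 log2 under cyclic loess. The other 4 alternatives could not change it, since it has 1 probe and its control level was above the floor. No other Rhox gene was detected at a limit of 0.05 either, the 1 alternative that could change that count, and 0 were higher without a filter on detection. Genes higher by 2-fold or more fell from 429 to 199 without background correction and to 272 with normexp and an offset of 50. Genes lower fell from 355 to 142, 206 and 233 without background correction, with normexp and with neqc at an offset of 50, and rose to 568 with the authors' values. The median of the pluripotent and germ cell markers, 1.12 log2, was -0.02 log2 without a filter on detection, since that takes in members at background. The other values of single genes were set against the scatter of genes of similar mean level, and those of lists against 0.34 log2. Of 1100 such values 1020 moved by less, 79 by more, and 1 changed sign. Many of the 1020 could not move, since several settings leave a gene detected on both arrays unchanged. The scatter is wide for dim genes (0.89 log2 for Dppa4), so Dppa4 and Dazl count among the 1020 without background correction, though both fell under 2-fold there. The median of all detected genes was -0.04 log2 as reported and -0.11 log2 under median scaling and with the authors' values. Larger offsets and uncorrected background shrink differences of dim probes by construction. No paired analysis was possible because each genotype had 1 array. Signal near background limits what can be said of every Rhox gene other than Rhox5.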

Other observations

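Promoters of genes higher in the Dnmt1-null line were poorer in CpG sites than those of genes that stayed within 2-fold. So were promoters of genes detected on neither array, so this is not particular to the higher genes. The 174 genes higher by 2-fold or more and undetected in the control, with a RefSeq window, had a median of 7 CpG sites (quartiles 5 and 12). Rhox5, with 5, is itself in this group. The 148 higher genes that were detected in the control had a median of 12 sites, the 266 lower genes 18, and the 5748 genes within 2-fold 23. The 6999 genes detected on neither array also had a median of 7. For genes with several windows the one richest in CpG sites was used. No test was made, since the groups were formed by the measured differences.

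Windows of the Rhox2 copies resembled that of Rhox5 in the motifs searched. CCGGAAG occurred 1 time and CCAAT 2 times in the windows of Rhox2a, Rhox2b, Rhox2c, Rhox2d, Rhox2e, Rhox2g and Rhox2h, and CCGGAAG was absent from those of Rhox1, Rhox10, Rhox11 and Rhox12. The Rhox2 genes had no probe under their names, so their levels in these lines are not known here.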
